A study of Homo sapiens with 12 samples.

Results

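The 32 genes described here encode subunits of the Mediator complex. Each was taken as the locus of the deposited table whose gene name held the subunit's symbol, and where several loci did, as the one with the highest mean level over the 12 libraries. All 32 listed symbols were found among 38272 loci, and all 32 passed the filter on low values (at least 1 FPKM in at least 3 of 12 libraries), as did 32866 loci in all. FPKM scales sequenced fragments by locus length and by each library's mapped total, so levels are comparable between genes per length. The set was chosen by the measured FPKM of MED1, which in the libraries with oligonucleotides against a long non-coding RNA (lncRNA) averaged 50.0% of its level in those without. That difference holds both without TNF (SG against control) and with it (TNFSG against TNF), so both comparisons are given as descriptions, with no test read from them.

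RNA was sequenced from K562, an established chronic myeloid leukaemia line with erythroid features, in 4 groups of 3 libraries labelled as replicates. Every group was transfected. Control cells received mock oligonucleotides, an siRNA and a GapmeR without a target (GapmeRs are antisense oligonucleotides that recruit RNase H), and TNF cells received the same plus tumour necrosis factor (TNF) at 20 ng/mL for 6 hours. The SG group received the siRNA Si623 with the GapmeR Gap01, both aimed at the lncRNA, and the TNFSG group received these and then TNF. One cell line and 1 siRNA and GapmeR combination were used, so an effect of losing the lncRNA and an effect of these 2 oligonucleotides on other RNAs cannot be told apart. As a check of the labels, the MIR146A locus lay between 0.159 and 0.569 FPKM in control, 21.2 and 28.1 in TNF, 0 and 0.063 in SG and 4.03 and 7.77 in TNFSG. The NF-kB target NFKBIA lay between 9.44 and 13.7 FPKM in the 6 libraries without TNF and between 133 and 143 in the 6 with it.

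Mediator is a large assembly that passes signals from DNA-bound transcription factors to RNA polymerase II. Its head and middle modules contact the polymerase, its tail binds many activators, MED14 runs through the complex as a backbone, and a kinase module built on CDK8 or CDK19 binds and leaves it. MED1, in the middle module, is the docking point of nuclear receptors, and in erythroid cells it is known to bind GATA1.

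Relative depth, read from the whole-read steps of low values, ran from 0.789 to 1.21 times that of control replicate 1, and the total depth is unknown. All 10 erythroid and K562 markers averaged at least 1 FPKM. They lie on 9 loci, since HBE1 and HBG2 share 1, and the sum over these loci was 2173 to 5111 FPKM in control, 2049 to 4836 in TNF, 2179 to 4279 under SG and 1946 to 3942 in TNFSG. Most of each sum is globin, and the globin values followed the replicate number. In control replicates 1, 2 and 3 the HBE1 and HBG2 locus had 1410, 2369 and 3414 FPKM, and HBZ had 295, 842 and 1160. Both rose from replicate 1 to 3 in all 4 groups. Of the markers of other cell types, 3 of 6 lymphoid, 3 of 6 fibroblast, 4 of 5 epithelial and 2 of 5 endothelial genes had a locus. None of the loci found was at 0 in all libraries. A mean of at least 1 FPKM was reached by 2 lymphoid, 3 fibroblast, 3 epithelial and 2 endothelial genes. Over the 12 libraries KRT19 ranged from 100 to 176 FPKM and EPCAM from 48.9 to 64.5. PECAM1 ranged from 15.9 to 51.4 and CD3D from 10.9 to 44.7. The fibroblast sum was 23.9 to 56.3 FPKM in control, 55.1 to 1178 in TNF, 21.4 to 45.3 in SG and 65.2 to 444 in TNFSG. Its highest gene was COL1A2, at 1098 FPKM in TNF replicate 1, 127 in TNF replicate 2, 406 in TNFSG replicate 2 and at most 6.39 elsewhere. The part of these markers in the results below was not tested.

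The windows of 250 bases upstream of the annotated starts of MED1 and MED15 are shown because MED1 chose the set and MED15 rose with TNF. They are RefSeq sequences of GRCh38.p14 on the gene's strand. Capitals mark matches, on either strand, to the YY1 letters GCCATNTT and to AGATAA, bound by GATA factors, in MED1, and to the ETS letters CCGGAAGT in MED15. The YY1 and GATA matches do not overlap. The MED1 window is chr17:39451264-39451513, minus strand, and the MED15 window is chr22:20507360-20507609, plus strand.

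MED1: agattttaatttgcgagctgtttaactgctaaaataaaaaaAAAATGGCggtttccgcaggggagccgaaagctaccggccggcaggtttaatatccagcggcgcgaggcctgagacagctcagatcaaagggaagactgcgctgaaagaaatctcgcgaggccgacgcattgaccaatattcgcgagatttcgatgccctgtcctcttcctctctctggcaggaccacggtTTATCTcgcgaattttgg

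MED15: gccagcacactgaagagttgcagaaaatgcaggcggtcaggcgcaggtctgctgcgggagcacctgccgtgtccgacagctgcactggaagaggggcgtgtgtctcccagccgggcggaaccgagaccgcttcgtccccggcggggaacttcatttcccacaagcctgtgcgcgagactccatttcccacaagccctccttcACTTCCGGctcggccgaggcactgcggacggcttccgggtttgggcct

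Of 35116 such windows in the annotation, 3.86% held the YY1 letters, 9.17% the GATA letters and 3.42% the ETS letters. Among the 24 subunits with a window, the YY1 letters were also in those of MED18 and MED25, the ETS letters in those of MED17, MED18 and MED7, and the GATA letters in that of MED1 alone. An NF-kB consensus was found in 5.21% of all windows and in those of MED11 and MED19. The AP-1 letters TGANTCA were found in 6.57% of all windows and in those of MED17, MED9 and a second start of MED15. These are matches of letters and carry no measure of binding.

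All 32 loci taken were expressed, and 30 of the subunits had a locus of their own, which carried no other gene name. The symbols MED4, MED12, MED15, MED21, MED22, MED23, MED25, MED29, MED31 and CCNC were each on more than 1 locus. A second MED12 locus averaged 10.9 FPKM, with values from 0 to 24.45, beside 14.2 for the locus taken. The locus of MED26 also carried the names CHERP, CTC-429P9.4, CTD-3222D19.2, SLC35E1 and SMIM7, and that of MED7 also carried HAVCR2, so those levels cannot be assigned to 1 gene. The shared MED26 locus had the highest mean, 170.4 FPKM. Its values were 173, 175 and 169 in control, 168, 164 and 181 in TNF, 178, 168 and 178 in SG and 176, 156 and 160 in TNFSG. Among the subunits with their own locus, MED15 averaged 155 FPKM, MED10 74.7 and the cyclin CCNC 68.8. The lowest was MED30, a subunit found in animals, at 8.31, 6.52 and 8.61 FPKM in control, 7.15, 7.66 and 6.38 in TNF, 6.94, 6.23 and 5.81 in SG and 5.08, 6.88 and 8.22 in TNFSG. The 4 groups of MED30 overlapped. Modules follow the grouping used here, which places MED27, MED28, MED29 and MED30 in the head. By module, the median of the mean levels was 18.6 FPKM for the 12 head subunits and 25.4 for the 6 middle subunits with their own locus. It was 31.9 for the 5 tail subunits and 14.8 for the 6 kinase module subunits.

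**Figure D1:**
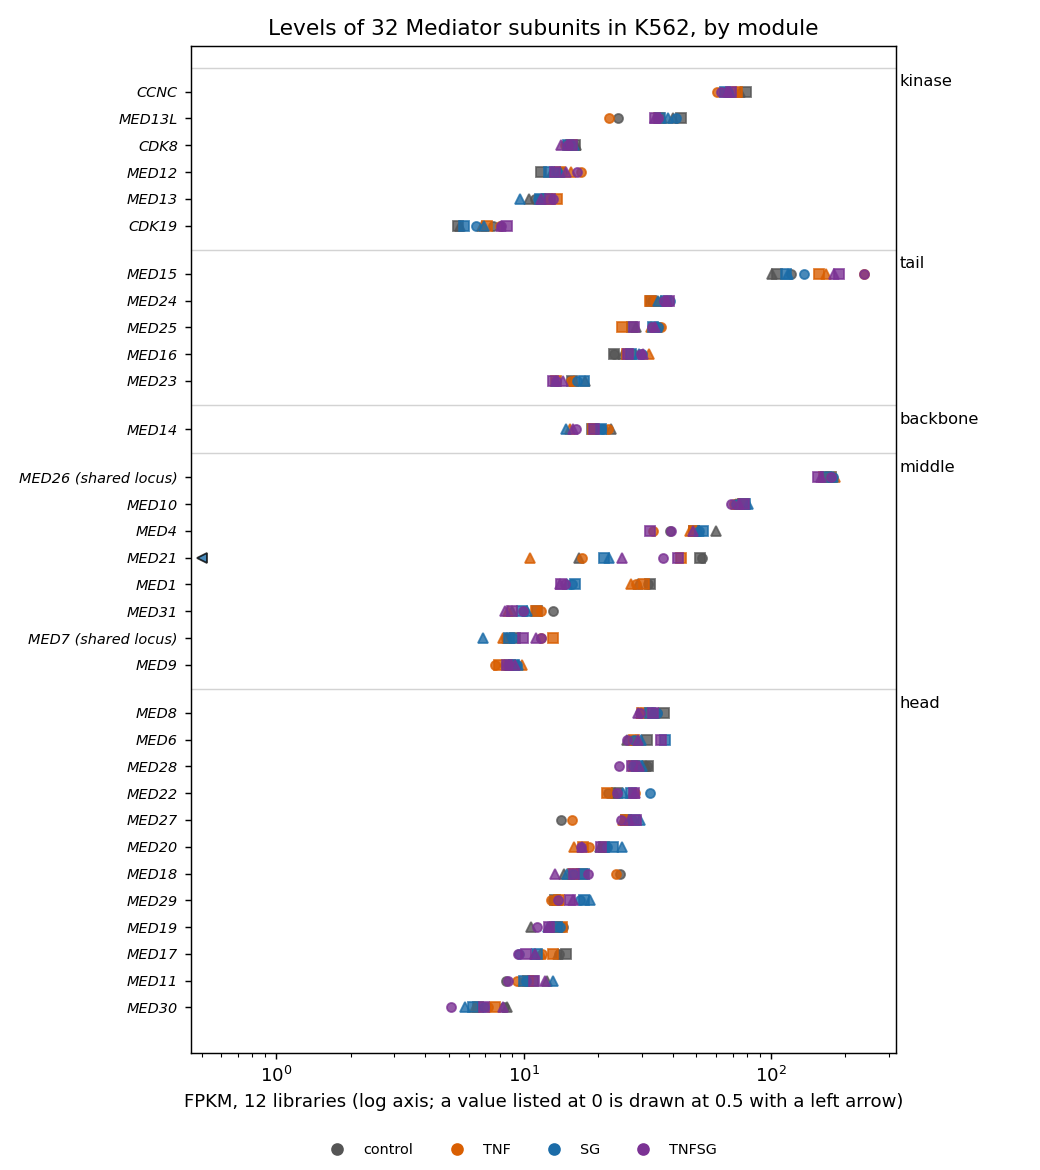
FPKM (log axis) of each of the 32 subunits in each of the 12 libraries, by module and coloured by group, with circles, squares and triangles for replicates 1, 2 and 3. MED15 lies to the right of the other subunits with their own locus, and the values of MED1 form a group between 13.99 and 16.1 FPKM with the lncRNA oligonucleotides and a group between 27.1 and 32.3 without them.

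MED1 was lower in every library that received the lncRNA oligonucleotides than in any that did not. Its FPKM values were 31.9, 32.3 and 28.9 in control, 28.5, 30.6 and 27.1 in TNF, 15.7, 16.1 and 15.0 in SG, and 14.7, 14.1 and 13.99 in TNFSG. The group means were 31.0 ± 1.84 (SD, n = 3), 28.7 ± 1.79, 15.6 ± 0.562 and 14.3 ± 0.402 in the same order. No value of the 6 libraries with the oligonucleotides reached those of the other 6. The TNF values overlapped those of control, and the TNFSG values lay just below those of SG. On the log2(FPKM + 1) scale the difference was -0.95 (SE 0.07) between SG and control and -0.96 (SE 0.07) between TNFSG and TNF.

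MED1 was the 1 subunit of 32 past limma's adjusted threshold in each of these comparisons, against 0.170% of all loci tested in SG against control and 0.128% in TNFSG against TNF. By unadjusted p under 0.05 the counts were 5 of 32 against 9.86% of all loci and 3 of 32 against 9.11%. Since MED1 chose the set, nothing is read from these counts. The interaction, which asks whether the difference depends on TNF, was -0.01 (95% interval -0.24 to 0.21). It is made of the same MED1 differences that chose the set, so it too is a description. The TNF average of MED1 was -0.11 (SE 0.05, limma adjusted p = 0.308). In bulk RNA, fewer cells with the transcript and less transcript per cell cannot be told apart.

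The place of MED1 among the 30 subunits with their own locus changed accordingly. It ranked between 8 and 13 from the top in the 6 libraries without the oligonucleotides and between 18 and 21 in the 6 with them. The ratio of MED1 to MED24, a tail subunit, was 0.918 ± 0.0991 (SD, n = 3) in control, 0.855 ± 0.0844 in TNF, 0.42 ± 0.0166 with SG and 0.378 ± 0.0191 in TNFSG. Against the backbone subunit MED14 the ratio was 1.5 ± 0.212, 1.55 ± 0.232, 0.852 ± 0.136 and 0.84 ± 0.0949 in the same order. Both ratios separated the libraries with and without the oligonucleotides, with no overlap. These ranks and ratios restate the MED1 values that chose the set, and nothing further is read from them.

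MED1 lies on chromosome 17 from 39404285 to 39451263 (GRCh38.p14), between FBXL20 and CDK12. CDK12, a kinase of the elongating polymerase, had 26.6, 25.6 and 29.0 FPKM in control, 22.9, 24.5 and 20.1 in TNF, 29.5, 28.0 and 21.9 in SG and 25.5, 24.9 and 23.4 in TNFSG. Its difference between TNFSG and TNF was 0.13 on the log2 scale (SE 0.12). FBXL20, which encodes an F-box protein, had 2.64, 2.02 and 1.98 FPKM in control, 3.23, 3.199 and 3.27 in TNF, 2.92, 3.43 and 3.22 in SG and 3.24, 4.12 and 3.96 in TNFSG. Its lowest values were those of control, and its difference between TNFSG and TNF was 0.17 (SE 0.14). RPL19, a ribosomal protein gene further along, stayed between 1312 and 1496 FPKM, with a log2 difference of -0.07 (SE 0.08) between TNFSG and TNF. None of the 3 was called in any comparison tested, and STAC2, NEUROD2 and PPP1R1B nearby had no locus under their names.

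**Figure D2:**
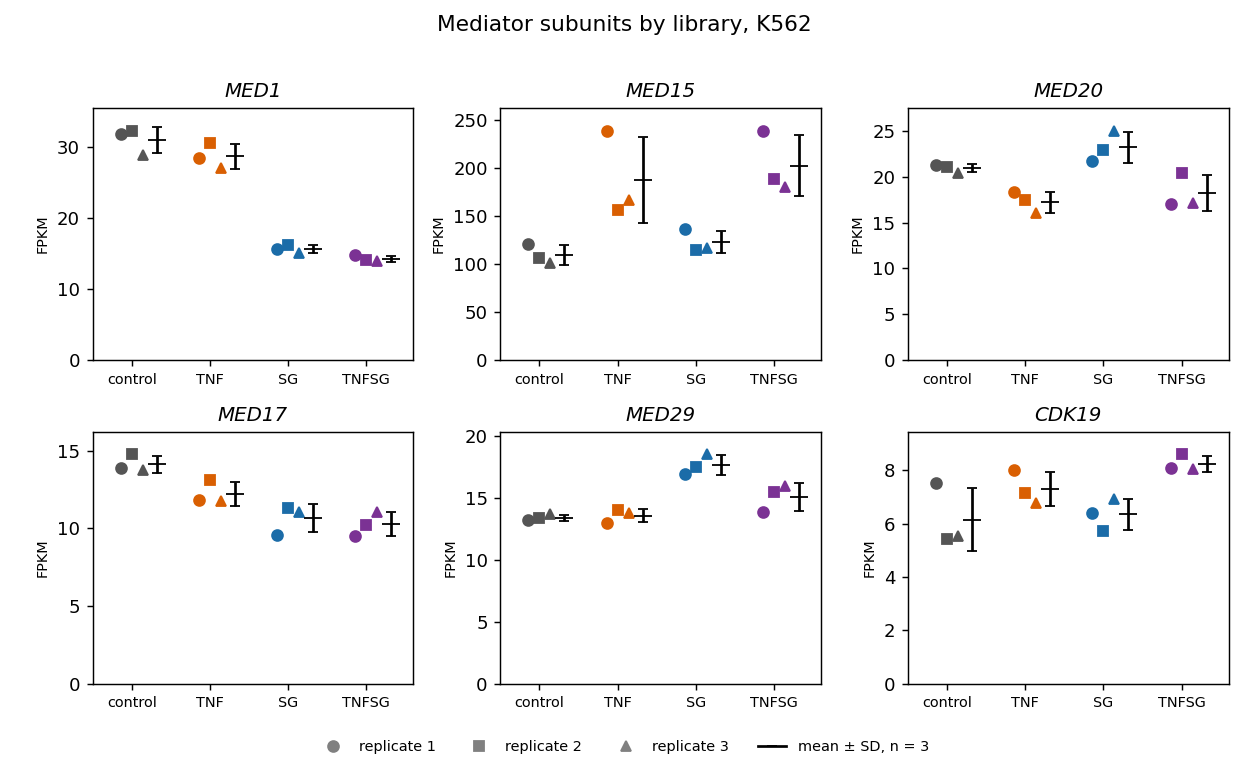
FPKM of 6 subunits in each library by group, with replicates as different symbols and the group mean ± SD (n = 3) beside them. MED1 drops from 27.1 or more to 16.1 or less with the lncRNA oligonucleotides, MED15 is at 156 or more with TNF and at 136 or less without it, and the other 4 differ less.

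The rest of the middle module was not called in any comparison tested. MED10 stayed between 69.0 and 80.5 FPKM, MED9 between 7.67 and 9.86, MED31 between 8.38 and 13.1 and MED4 between 32.5 and 60.1. MED7, which pairs with MED21 in the hinge of the module, shares its locus with HAVCR2. That locus had 8.46, 9.23 and 8.55 FPKM in control, 11.7, 13.2 and 8.23 in TNF, 9.08, 8.76 and 6.86 in SG and 11.8, 9.92 and 11.2 in TNFSG. The TNF replicate 3 lay with the libraries without TNF, and the difference with TNF averaged over both transfections was 0.33 (SE 0.12, limma adjusted p = 0.176), which passed only without that library (0.0409).

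MED21 was the most uneven subunit. The locus the selection took had 52.8, 51.8 and 16.8 FPKM in control, 17.3, 43.4 and 10.6 in TNF, 0, 21.2 and 22.1 in SG and 36.5, 42.3 and 25.1 in TNFSG. Replicates of 1 group differed here as much as groups did, and the interaction of 2.93 had an SE of 1.56 (limma adjusted p = 1.00). A second locus named MED21, looked at after these values were seen, ranged from 15.4 to 25.4 FPKM with no library at 0.

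MED14 spans the complex from head to tail. Its FPKM values were 21.0, 18.9 and 22.5 in control, 21.9, 19.0 and 15.4 in TNF, 20.5, 20.6 and 14.9 in SG and 16.3, 19.3 and 15.8 in TNFSG. The 4 groups overlapped, and the difference between TNFSG and TNF was -0.12 (SE 0.16).

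With TNF, the tail subunit MED15 was the one that rose. MED15 binds activators such as SREBP through its KIX domain, and its gene lies on chromosome 22 from 20507610 to 20587619 (GRCh38.p14). Its FPKM values were 120.5, 106 and 101 in control, 238, 156 and 167 in TNF, 136, 115 and 117 in SG and 238, 188 and 180 in TNFSG. All 6 libraries with TNF were above all 6 without it, and replicate 1 was the highest in each of the 4 groups. The mean was 116 ± 12.3 FPKM (SD, n = 6) without TNF and 195 ± 35.5 with it, a ratio of 1.68. In the same libraries the erythroid factor NFE2 ranged from 92.9 to 107 FPKM without TNF and from 36.2 to 57.0 with it, and KLF1 from 79.4 to 105.9 without TNF and from 44.9 to 68.3 with it. The other erythroid markers overlapped between libraries with and without TNF, and the part of NFE2 and KLF1 in the TNF differences of MED15 and MED20 was not tested.

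Averaged over both transfections, the TNF difference of MED15 was 0.73 (SE 0.12, limma adjusted p = 0.00763). It was called without each of the 12 libraries in turn, with limma adjusted p from 0.0067 to 0.0253. Neither transfection alone passed the threshold in this fit, with 0.75 (SE 0.17, limma adjusted p = 0.0723) in TNF against control and 0.71 (SE 0.17, limma adjusted p = 0.0861) in TNFSG against SG. Both passed when the replicate number was fitted as a block. Without a block, neither passed in any fit that left out 1 of its 6 libraries. The difference between these 2 effects was -0.04 (95% interval -0.58 to 0.49). MED15 also ranked first among the 30 subunits with their own locus in all 12 libraries. A further 8 loci carry its name, with means between 1.27 and 9.59 FPKM, so reads of the gene may be spread over several loci of the table.

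The head subunit MED20 fell with TNF, on the same average. MED20 and MED18 form a movable part of the head, and the gene lies on chromosome 6 from 41905354 to 41921139 (GRCh38.p14). Its FPKM values were 21.3, 21.1 and 20.4 in control, 18.3, 17.4 and 16.0 in TNF, 21.8, 22.9 and 25.1 in SG and 17.1, 20.5 and 17.2 in TNFSG. The highest value with TNF, TNFSG replicate 2, just exceeded the lowest without it, control replicate 3. The mean was 22.1 ± 1.66 FPKM (SD, n = 6) without TNF and 17.8 ± 1.52 with it, and the log2 difference was -0.30 (SE 0.06, limma adjusted p = 0.027). This call did not hold in 9 of 12 fits that left out 1 library, with limma adjusted p up to 0.0736. It held only without TNF replicate 1, SG replicate 1 or TNFSG replicate 2.

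These 2 subunits are 6.25% of the 32, against 4.38% of all loci called on the TNF average, so their number is near the background. By unadjusted p under 0.05, 9 of 32 passed (5 higher, 4 lower), against 15.9% of all loci. The median log2 change of the 32 was -0.048, beside -0.026 for all loci tested. In TNF against control limma called no subunit, against 1.45% of all loci, and 5 of 32 had an unadjusted p under 0.05, against 11.2%. In TNFSG against SG limma called none either, against 1.64%, and 5 of 32 had an unadjusted p under 0.05, against 11.4%. In the interaction limma called none of the 32 and none had an unadjusted p under 0.05, against 0.00913% and 3.75% of all loci. These comparisons share libraries with one another.

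**Figure D3:**
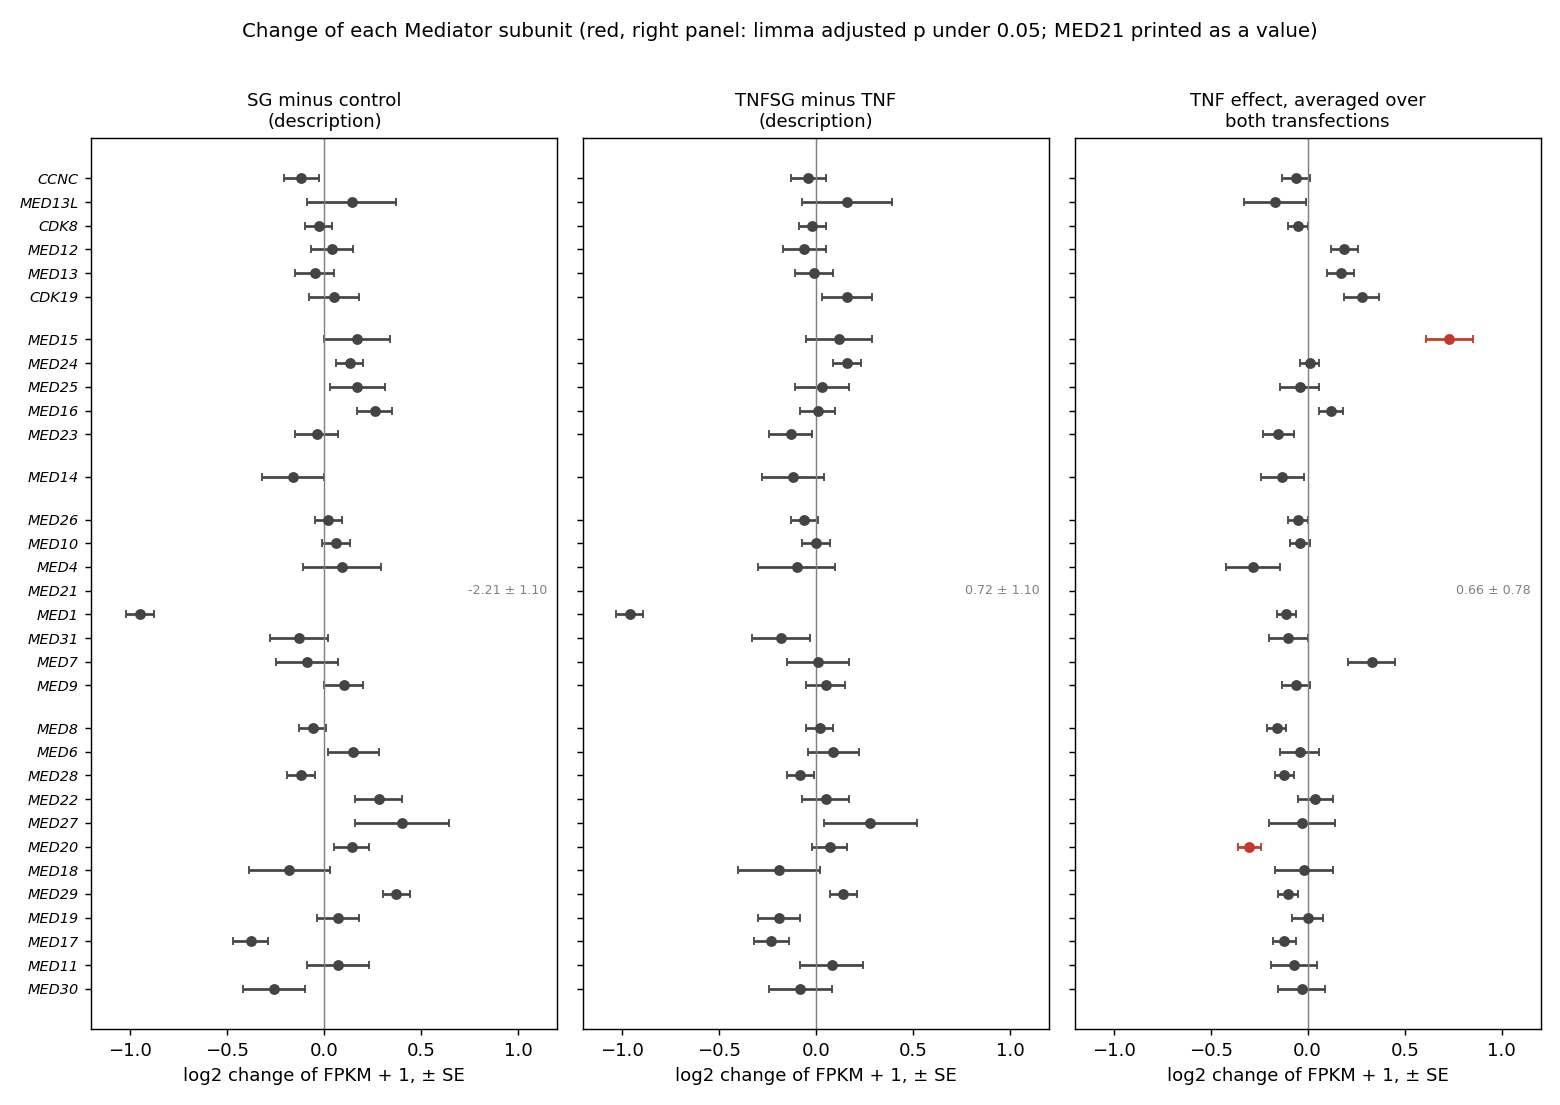
Log2 change of FPKM + 1 with its SE for each subunit in SG against control, TNFSG against TNF and the TNF average, with limma calls in red in the last panel, the first 2 being descriptions, and MED21 printed as a value because it lies off the axis or has a wide error. MED1 stands at -0.95 and -0.96 in the first 2 panels, and MED15 at 0.73 and MED20 at -0.30 in the last.

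Among the other tail subunits, MED16 had 23.3, 23.3 and 25.2 FPKM in control, 27.6, 26.2 and 32.01 in TNF, 30.0, 27.2 and 29.3 in SG and 29.9, 26.4 and 30.3 in TNFSG. Control lay below the other 3 groups, which overlapped, and the interaction was -0.24 (SE 0.13, limma adjusted p = 1.00). MED24 had 33.2, 32.7 and 36.0 FPKM in control, 34.0, 32.3 and 34.7 in TNF, 39.1, 37.8 and 34.9 in SG and 36.9, 38.7 and 37.9 in TNFSG. Each TNFSG value was above each TNF value, with a log2 difference of 0.16 (SE 0.07). MED23, a partner of the factor ELK1, stayed between 13.2 and 17.7 FPKM, and MED25, a target of the viral activator VP16, between 24.9 and 36.0.

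In the head, MED17 is the scaffold on which the module is built. Its FPKM values were 13.9, 14.8 and 13.8 in control, 11.8, 13.1 and 11.8 in TNF, 9.60, 11.3 and 11.1 in SG and 9.50, 10.2 and 11.1 in TNFSG. The libraries with the lncRNA oligonucleotides all lay below those without them. The log2 difference was -0.38 (SE 0.09) between SG and control and -0.23 (SE 0.09) between TNFSG and TNF.

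MED29, which sits where head and tail meet, had 13.2, 13.3 and 13.7 FPKM in control, 12.9, 13.96 and 13.8 in TNF, 16.9, 17.5 and 18.5 in SG and 13.8, 15.4 and 15.9 in TNFSG. SG alone was above all other libraries. The log2 difference was 0.37 (SE 0.07) between SG and control and 0.14 (SE 0.07) between TNFSG and TNF. The interaction, -0.23 (SE 0.10), had an unadjusted p of 0.0522 and a limma adjusted p of 1.00, so a dependence on TNF was not shown.

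MED8, another head subunit, had 34.6, 37.1 and 33.0 FPKM in control, 30.7, 30.2 and 29.7 in TNF, 34.6, 32.5 and 33.2 in SG and 29.7, 33.2 and 29.0 in TNFSG. Control and TNF did not overlap, while TNFSG replicate 2 reached the SG values. The TNF average of -0.16 (SE 0.05) did not pass (limma adjusted p = 0.12). The remaining head subunits had no call either. MED6 ranged from 26.1 to 37.3 FPKM, MED11 from 8.49 to 13.1, MED19 from 10.7 to 14.4, MED22 from 21.7 to 32.3 and MED28 from 24.2 to 31.8.

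Limma called no member of the kinase module in any comparison tested, and on the TNF average 3 of 6 (CDK19, MED12 and MED13) had an unadjusted p under 0.05, all higher, beside 15.9% of all loci in either direction. CDK8, its founding kinase, was the steadiest of the 32, with a coefficient of variation of 3.98% over the 12 libraries. Its FPKM values were 15.1, 16.2 and 16.3 in control, 14.7, 15.5 and 15.2 in TNF, 15.3, 15.1 and 15.9 in SG and 15.1, 15.6 and 14.1 in TNFSG. The 4 groups overlapped.

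CDK19, the paralogue that can take the place of CDK8, had 7.51, 5.41 and 5.54 FPKM in control, 8.01, 7.14 and 6.78 in TNF, 6.40, 5.74 and 6.90 in SG and 8.07, 8.60 and 8.07 in TNFSG. Control replicate 1 lay among the TNF values and apart from the other control libraries. The TNF average was 0.28 (SE 0.09, limma adjusted p = 0.145), and it passed only without control replicate 1 (0.0399). The ratio of CDK8 to CDK19 was 2.65 ± 0.554 (SD, n = 3) in control, 2.08 ± 0.216 in TNF, 2.45 ± 0.172 with SG and 1.81 ± 0.0588 in TNFSG.

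Cyclin C, the product of CCNC, activates both kinases. CCNC had 65.4, 79.1 and 75.2 FPKM in control, 60.4, 73.1 and 72.2 in TNF, 67.1, 65.4 and 68.6 in SG and 62.6, 69.2 and 67.0 in TNFSG. These groups overlapped, and the TNF average was -0.06 (SE 0.07). MED12, which activates the kinase through cyclin C, had 14.2, 11.8 and 13.1 FPKM in control, 17.1, 14.04 and 15.5 in TNF, 13.7, 12.7 and 14.02 in SG and 16.4, 13.4 and 14.9 in TNFSG. The libraries with and without TNF overlapped, and the TNF average of 0.19 (SE 0.07) did not pass (limma adjusted p = 0.251).

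MED13 and MED13L are alternative links between the kinase module and the core complex. MED13 had 11.1, 12.4 and 10.5 FPKM in control, 11.7, 13.6 and 12.7 in TNF, 11.4, 11.6 and 9.71 in SG and 13.1, 12.8 and 11.8 in TNFSG, with a TNF average of 0.17 (SE 0.07, limma adjusted p = 0.273). MED13L had 24.2, 43.2 and 40.2 FPKM in control, 22.2, 35.3 and 36.3 in TNF, 41.5, 35.6 and 38.2 in SG and 34.8, 34.0 and 33.9 in TNFSG. MED13L was above MED13 in all 12 libraries, by a ratio of 3.16 ± 0.873 (SD, n = 3) in control, 2.45 ± 0.499 in TNF, 3.54 ± 0.445 with SG and 2.73 ± 0.128 in TNFSG.

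Replicate 1 of control and of TNF stood apart from the other 10 libraries in 3 subunits, which were singled out after their values were seen. MED13L was at 24.2 and 22.2 FPKM there and at 33.9 or more elsewhere. MED27, grouped here with the head, was at 14.1 and 15.7 there and at 24.7 or more elsewhere. MED18, the partner of MED20, was at 24.4 and 23.6 there and at 18.3 or less elsewhere. On the log2 scale these 2 libraries differed from replicates 2 and 3 of their groups by -0.71 for MED13L, -0.75 for MED27 and 0.57 for MED18, and 18%, 16.7% and 24.9% of all loci tested lay at least as far apart. Differences between SG and control or TNFSG and TNF in these 3 genes rest in part on those libraries.

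**Figure D4:**
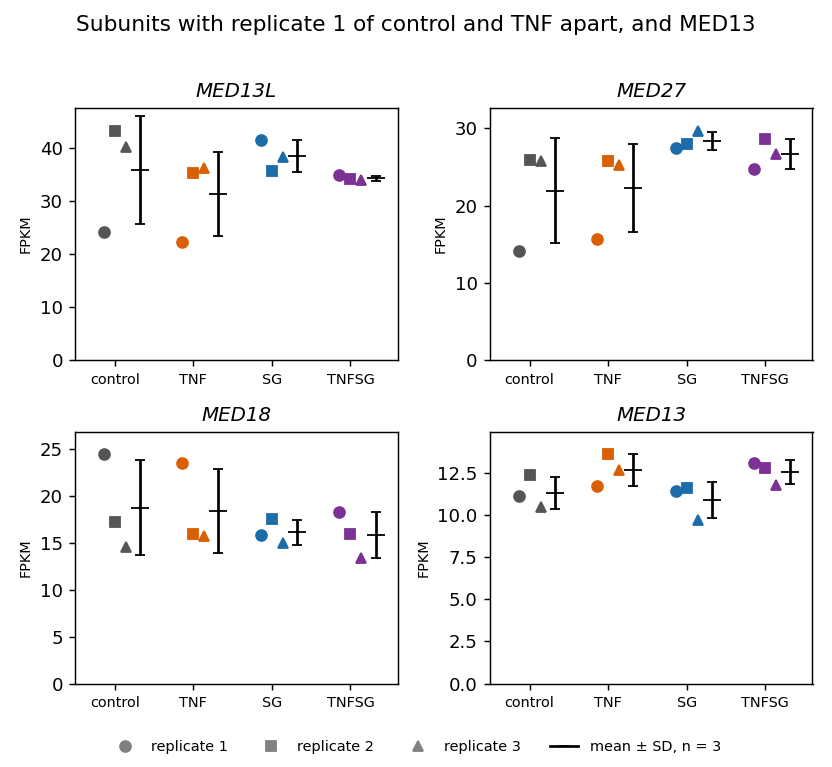
FPKM of MED13L, MED27, MED18 and, for comparison, MED13 in each library by group, with replicates as different symbols and the group mean ± SD (n = 3). Replicate 1 of control and TNF lies below the other libraries for MED13L and MED27 and above them for MED18, and within the other values for MED13.

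The factors that work with Mediator were read from lists of RNA polymerase II subunits (12 tested), general transcription factors (29), pause release and elongation factors (18), coactivators and acetyltransferases (10) and cohesin with its loader (9). On the TNF average, 0 of 12 polymerase subunits were called (2 by unadjusted limma p under 0.05) and 0 of 9 cohesin genes (1 by unadjusted limma p). Among the general factors 1 of 29 rose and 1 fell, among the elongation factors 1 of 18 rose and 1 fell, and among the coactivators 1 of 10 rose. By unadjusted limma p under 0.05, these 3 lists had 4, 4 and 2 genes in the same order. The background is again 4.38% of all loci for calls and 15.9% by unadjusted p. The list medians were -0.039 for the polymerase, -0.100 for the general factors, -0.005 for the elongation factors, -0.035 for the coactivators and -0.048 for cohesin.

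The coactivator that rose was NCOA3, a nuclear receptor coactivator. It had 8.58, 7.78 and 6.91 FPKM in control, 13.2, 10.7 and 10.6 in TNF, 7.55, 7.79 and 6.79 in SG and 12.7, 10.9 and 11.9 in TNFSG, with no overlap between libraries with and without TNF (0.56, limma adjusted p = 0.00389). ELL2, a subunit of the super elongation complex, had 10.7, 11.4 and 12.4 FPKM in control, 14.9, 15.7 and 15.2 in TNF, 10.0, 10.7 and 10.2 in SG and 14.8, 15.0 and 13.6 in TNFSG, also without overlap (0.42, limma adjusted p = 0.00195). MLLT1, another partner in that complex, moved the other way. It had 27.8, 26.7 and 26.0 FPKM in control, 22.3, 21.9 and 21.5 in TNF, 28.6, 23.6 and 27.3 in SG and 21.7, 20.9 and 20.8 in TNFSG (-0.29, limma adjusted p = 0.0129). CDK7, the kinase of the general factor TFIIH, had 34.3, 34.7 and 33.5 FPKM in control, 40.3, 47.1 and 43.6 in TNF, 32.1, 36.6 and 37.2 in SG and 43.9, 51.9 and 43.6 in TNFSG (0.36, limma adjusted p = 0.0121). All 4 calls held without each of the 12 libraries in turn. GTF2H1, a core subunit of TFIIH, had 26.2, 29.1 and 32.3 FPKM in control and 19.2, 24.4 and 22.3 in TNF. It had 28.0, 25.9 and 27.4 in SG and 22.5, 22.5 and 22.9 in TNFSG. Its mean fell with TNF from 28.2 to 22.3 FPKM over 6 libraries each (-0.32, limma adjusted p = 0.0297). Leaving out 1 library kept that call in 3 fits, those without replicate 1 of control and without replicate 1 or 2 of TNF.

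In TNF against control alone, ELL2 was the single call over these lists (0.38, limma adjusted p = 0.0443), and it was lost without any 1 of the 6 libraries. In TNFSG against SG, ELL2 (0.45, limma adjusted p = 0.0177) and NCOA3 (0.61, limma adjusted p = 0.0298) were called. The NCOA3 call was lost without any 1 of the 6 libraries and the ELL2 call without SG replicate 1 or 3 or TNFSG replicate 1 or 2.

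The comparisons of the lncRNA oligonucleotides are again descriptions. In SG against control, TBP and GTF2A1 were the 2 listed genes past limma's threshold, both lower, beside 0.170% of all loci. An unadjusted limma p under 0.05 was reached by 1 polymerase subunit, 2 general factors, 4 elongation factors, 1 coactivator and 2 cohesin genes, beside 9.86%. In TNFSG against TNF none of the listed factors was past it, beside 0.128% of all loci, and 2 polymerase subunits, 2 general factors and 3 elongation factors had an unadjusted limma p under 0.05, beside 9.11%. TBP, the TATA-binding protein, had 25.7, 24.6 and 30.4 FPKM in control, 24.0, 20.6 and 23.9 in TNF, 16.7, 18.1 and 16.8 in SG and 17.0, 17.1 and 17.8 in TNFSG. GTF2A1, a TFIIA subunit, had 13.5, 12.9 and 12.1 FPKM in control, 13.2, 13.7 and 12.6 in TNF, 7.85, 7.52 and 6.43 in SG and 9.03, 8.52 and 7.42 in TNFSG. In neither gene did the libraries with and without the oligonucleotides overlap. The same held for the elongation factors LARP7 (57.9 to 83.3 FPKM with them, 84.1 to 120 without) and NELFCD (36.4 to 39.8 with, 41.2 to 46.9 without). The share of all loci that separate in this way was not counted. Between TNFSG and TNF the log2 difference was -0.38 for TBP, -0.60 for GTF2A1, -0.62 for LARP7 and -0.16 for NELFCD.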

How the data were processed

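RNA of 12 K562 libraries was sequenced in single reads of 50 bases, per the labels' protocols. The authors deposited 1 table of FPKM values. The submitters' processing notes name Cufflinks, TopHat2 2.0.14, Bowtie2 2.2.9 and build hg38, and the release of the annotation is not given in the sources here. Overlapping, antisense and near-identical genes cannot be separated in these values.

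Values were transformed as log2(FPKM + 1), which understates changes of low genes. Loci reaching 1 FPKM in 3 or more of 12 libraries were fitted together with limma 3.58.1 in R 4.3.3 (1 mean per group, eBayes with trend, two-sided). P-values were adjusted by Benjamini-Hochberg over all 32866 loci, with a threshold of 0.05. The series labels the replicates as biological. Python 3.11.15, numpy 2.4.6, pandas 2.3.3 and matplotlib 3.10.9 were used.

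The members and lists were chosen with earlier results of these data known. TNFSG against TNF, planned as a test, is given as a description, since MED1 chose the set in it too. Values in every library are given for MED1, called subunits, the kinase module, MED14, the highest and lowest subunits, the 3 of lowest p per comparison, up to 3 called genes per list and the neighbours of MED1. TBP, GTF2A1, LARP7, NELFCD, NFE2, KLF1, HBZ, HBE1, HBG2, COL1A2, KRT19, EPCAM, PECAM1, CD3D, MED18, MED27, the shared MED7 locus and the second MED12 locus were named after their values were seen. Alternatives were a replicate block, pseudocounts of 0.1 and 0.5, other filters and scalings, limma without trend, only the groups compared, and each library left out. In a further alternative, subunits whose symbol lay on several loci were fitted as the sum over those loci.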

Additional observations from a re-analysis of the deposited data

How the results depend on the processing

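The interaction gave 0 calls among the subunits under every alternative run. TNF against control gave 1 call in place of 0 (MED15) with a filter at 5 FPKM and with the replicate block, and 0 in every fit that left out a library. Of the comparisons given as descriptions, TNFSG against TNF gave 0 in place of 1 when only the groups compared were fitted, and 1 in every fit that left out a library. TNFSG against SG gave 1 in place of 0 (MED15) with the replicate block and without replicate 1 of control and TNF together, an alternative chosen after seeing the data, and 0 in every fit that left out a library. The TNF average gave 1 in place of 2 without the trend and without those 2 libraries (MED20 was lost), and from 1 to 2 without each library in turn. SG against control gave 2 in place of 1 with the filter at 5 FPKM (MED29 added), 0 with only the groups compared, and 1 in every fit that left out a library. The causes of these shifts were not tested, and no called value changed sign. In SG against control and TNFSG against TNF the counts include MED1, which chose the set, so nothing is read from them.

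Same-numbered libraries of different groups had correlations of their deviations from 0.00651 to 0.138 (18 pairs). Differently numbered ones had correlations from -0.0932 to 0.0425 (36 pairs). The main fit did not pair the libraries by number. With the replicate block the TNF average gave 3 calls (MED12 added, limma adjusted p = 0.043). Quantile normalization moved the median log2 change of all loci from 0.085 to -0.026 in SG against control and from 0.081 to -0.029 in TNFSG against TNF. The total depth is unknown, so no counting interval can be given.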
